A study of Mus musculus with 12 samples.

Results

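The CaM kinase and calmodulin genes of mouse hippocampus were followed here: the CaMKII genes Camk2a, Camk2b, Camk2d and Camk2g, the kinase gene Camk4, and the calmodulin genes Calm2 and Calm3. These 7 genes were chosen by gene symbol, and all 7 are among the 14360 genes listed in all 4 deposited count tables. RNA of hippocampus from C57BL6/J mice was sequenced in 12 libraries, 6 of a synapse fraction and 6 of whole homogenate. Both fractions have an arm C, which the file headers name control, and an arm L, which they name learned or training. The synapse columns of days 1 and 20 carry only the letters C and T, and T was read as the L arm. The groups were synapse C and synapse L with 1 library each on days 1, 6 and 20, and homogenate C and homogenate L with 3 libraries each on day 6. No age, allele, training protocol or fractionation method is given in the sources used here. Whether the libraries within a group are from different mice is not stated, and p-values therefore reflect only the spread among these libraries, which may be technical.

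Calcium that enters a neuron binds calmodulin, and calcium-loaded calmodulin switches on the CaM kinases. CaMKII assembles into a large ring of subunits that phosphorylate each other on a threonine of the regulatory segment, after which the kinase stays active when calcium falls. In forebrain neurons it is one of the most abundant synaptic proteins and is required for long-term potentiation. Camk2a messenger RNA is known for its transport into dendrites, whereas Camk2b messenger RNA is known mainly from cell bodies. CaM kinase IV, the product of Camk4, acts largely in the nucleus, where it phosphorylates the transcription factor CREB.

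The paralogs encode nearly the same proteins from coding sequences that reads can largely tell apart. Positions are those of the GENCODE M21 annotation of GRCm38 (mm10), and counts are per gene, summed over all of its transcripts. Calm2 (ENSMUSG00000036438, chr17:87433412-87446935) and Calm3 (ENSMUSG00000019370, chr7:16915379-16924114) both lie on the minus strand. Calm2 and Calm3 encode the same 149 residues, with 0 differences, from 450 coding bases of which 82.7% are identical, and their longest shared run is 17 bases. The first 60 coding bases are shown because they carry this contrast, with the 8 bases that differ in capitals, 5′ to 3′ on the coding strand.
Calm2: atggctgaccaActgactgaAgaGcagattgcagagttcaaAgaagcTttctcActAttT
Calm3: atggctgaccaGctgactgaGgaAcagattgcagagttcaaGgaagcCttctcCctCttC
Camk2b (ENSMUSG00000057897, chr11:5969644-6066362, minus strand) encodes the actin-binding beta subunit of CaMKII. Camk2d (ENSMUSG00000053819, chr3:126596302-126846326, plus strand) and Camk2g (ENSMUSG00000021820, chr14:20734875-20794088, minus strand) encode the more widely expressed delta and gamma subunits. Among the CaMKII genes, the pairs shared 89.2% to 92.3% of their residues and 77.0% to 80.8% of their bases over a catalytic and regulatory stretch of 286 or 287 residues. The next lines give coding bases 844 to 903, counted from the A of the start codon, which hold the codon of the threonine that CaMKII subunits phosphorylate on each other. Capitals mark the 23 positions at which at least 1 of these genes differs.
Camk2b: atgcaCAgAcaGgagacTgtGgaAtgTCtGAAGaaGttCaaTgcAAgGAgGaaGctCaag
Camk2d: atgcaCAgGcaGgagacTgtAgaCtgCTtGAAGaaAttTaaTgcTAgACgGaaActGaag
Camk2g: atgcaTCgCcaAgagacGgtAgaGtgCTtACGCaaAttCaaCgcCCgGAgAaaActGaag
Of all 50-base runs in the annotated transcripts of Calm2, 9.72% also occur in transcripts of other genes on the same strand, against 2.52% for Calm3, 0.253% for Camk2a and 0.106% for Camk2b. For Camk2d, Camk2g and Camk4 this share was 0. By this measure Calm2 counts are the least certain of the members. Camk4 shares 72 exonic bases with an antisense gene, whose reads cannot be told apart where strand was not used in counting.

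Library totals ran from 9.10e+06 to 1.595e+07 counts. The lowest count of any member was 552 (Camk2d). All 10 markers of hippocampal pyramidal and granule neurons were detected in each of the 12 libraries, with summed levels of 2709 to 3388 CPM (the count divided by the library's total and brought to a common size) in the synapse fraction and 2901 to 3829 CPM in homogenate. Summed astrocyte and microglial markers were also higher in the synapse fraction. Its 8 astrocyte markers summed to 16019 to 21850 CPM against 8826 to 10349 CPM in homogenate. Slc1a2 alone made up most of these synapse sums on days 1 and 6, at 12393 (C) and 12576 (L) CPM on day 1 and 18034 (C) and 16701 (L) CPM on day 6. The 8 microglial markers summed to 353 to 632 CPM in the synapse fraction against 139 to 171 CPM in homogenate. Csf1r was at 0 in both day 6 synapse libraries and in homogenate L replicate 2. The 8 oligodendrocyte markers summed to 10267 to 11983 CPM in the synapse libraries of days 1 and 20, to 3226 to 3812 CPM in those of day 6, and to 2168 to 3583 CPM in homogenate. Mitochondrially encoded genes took 2.36% to 3.05% of synapse counts and 0.314% to 0.516% of homogenate counts. The 100 most abundant genes took 27.2% to 28.6% of counts in the day 6 synapse libraries, 19.9% to 20.5% on days 1 and 20 and 13.9% to 15.2% in homogenate. Homogenate L replicate 1 stood apart by 2119 CPM of liver transcripts other than Ttr, against at most 0.376 CPM in the other homogenates, and the day 6 synapse libraries held 30.6 and 151 CPM. In bulk RNA, fewer cells of a type and less RNA per cell cannot be told apart, and the part of these differences in the results that follow was not tested.

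Camk2a was the most abundant member per transcript length in the synapse fraction, and Calm2 in the homogenate. In homogenate, the level per kilobase of the longest coding transcript was 716 to 908 CPM for Calm2, 545 to 744 for Camk2a, 368 to 417 for Calm3, 215 to 252 for Camk2b, 149 to 187 for Camk4, 38.2 to 42.1 for Camk2g and 10.8 to 21.2 for Camk2d. The ranges of Calm2 and Camk2a overlapped, and those of all other neighbours in this order did not. Calm2 stood above Camk2a in 6 of 6 homogenate libraries, and Camk2a stood above Calm2 in 6 of 6 synapse libraries. The other members kept the same order in every library. Among the 16889 homogenate genes with an annotated length, Calm2 ranked 3 to 8, Camk2a 6 to 15, Calm3 25 to 34 and Camk2b 63 to 98, whereas Camk2g ranked 1381 to 1561 and Camk2d 3290 to 5641. The order depends on the transcript length assumed for each gene.

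In the synapse libraries of days 1 and 20, Camk2a stood at 716 to 922 CPM per kilobase, Calm2 at 485 to 545, Calm3 at 347 to 369, Camk2b at 170 to 193, Camk4 at 73.9 to 85.7, Camk2g at 32.9 to 37.0 and Camk2d at 9.43 to 10.8. In those of day 6 the levels per kilobase were 576 and 667 CPM for Camk2a, 263 and 273 for Calm2, 154 and 181 for Calm3, 64.9 and 81.9 for Camk2b, 48.6 and 57.4 for Camk4, 17.9 and 19.6 for Camk2g and 7.95 and 10.3 for Camk2d. No neighbours in the synapse order overlapped within these sets of libraries.

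**Figure D1:**
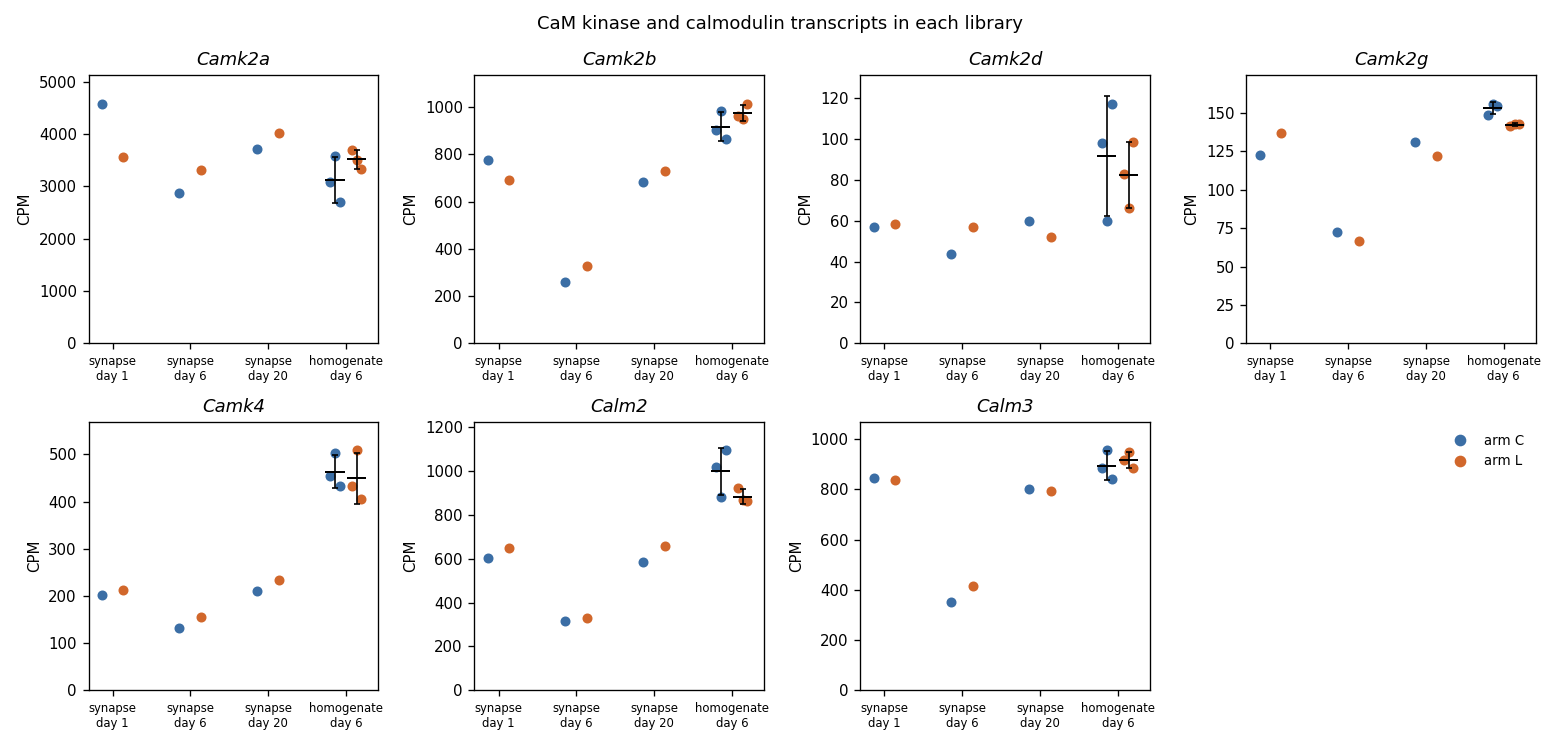
Level of each member in CPM (vertical axes from 0, a separate scale per gene) in each library, by fraction and day, with arm C in blue and arm L in orange. Black bars give the mean and SD of the 3 homogenate libraries per arm. Camk2b, Camk2g, Camk4, Calm2 and Calm3 sit lowest in the day 6 synapse libraries. Camk4 is lower in all synapse libraries than in any homogenate, as are Camk2b, Camk2g and Calm2.

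The comparison of the synapse fraction with the homogenate asks which of these messenger RNAs are relatively enriched there. On day 6 with TMM scaling, Camk2a was called higher in the synapse fraction, and Camk2b, Camk4, Calm2, Calm3 and Camk2g were called lower. The median of all genes was itself at -0.22, and Camk2g and Calm3 were the called members closest to it. Camk2a (ENSMUSG00000024617, chr18:60925618-60988152, plus strand), the gene of the alpha subunit, stood at 2865 (C) and 3314 (L) CPM in the day 6 synapse libraries, and at 3083, 3580 and 2710 CPM (C) and 3700, 3509 and 3334 CPM (L) in homogenate. These raw levels overlapped. After TMM scaling, which allows for the larger share of counts that few genes took in the synapse libraries, Camk2a was higher by 0.66 on the log2 scale (SE 0.11, edgeR's quasi-likelihood test, adjusted p = 0.000518). Scaling by library totals alone turned the value to -0.10 (adjusted p = 0.356), and the median of all genes moved from -0.22 to -0.98. Relative to that median, Camk2a stood 0.88 higher under both scalings. A change of scaling moves all genes by nearly the same amount, so this position is kept by construction and is no check on the result.

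In CPM before TMM scaling, Camk2b was lower in every day 6 synapse library than in any homogenate. The same held for all other members except Camk2a, and how many of all genes were separated in this way was not counted. The synapse levels of Camk2b were 261 (C) and 329 (L) CPM. They stood against 904, 985 and 866 CPM in homogenate C and 963, 952 and 1016 CPM in homogenate L. The log2 difference was -0.93 (SE 0.09, edgeR adjusted p = 1.09e-05), and -1.69 with library totals. The alpha and beta subunit transcripts of CaMKII differed in opposite directions from the homogenate under TMM scaling, but not with library totals. Camk2a was above and Camk2b below the median of all genes, a position that the choice of scaling hardly affects.

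Camk2g was lower by a smaller amount. Of the 14137 genes tested, 46.3% had a value as low or lower, so Camk2g lay near the median of all genes (-0.22). It was at 72.7 and 66.4 CPM in the day 6 synapse libraries and at 141 to 156 CPM in homogenate, which gave a difference of -0.32 (log2, SE 0.08, edgeR adjusted p = 0.00432) that missed the threshold without the L synapse library (-0.24, adjusted p = 0.0677). Camk2d was at 43.9 and 56.9 CPM in the synapse fraction and ranged from 59.6 to 117 CPM in homogenate. Its log2 difference of -0.03 (95% interval -0.60 to 0.54) did not pass the test, and with library totals it was -0.80 (adjusted p = 0.0321).

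Camk4 (ENSMUSG00000038128, chr18:32934931-33191228, plus strand), the nuclear kinase, was at 132 (C) and 156 (L) CPM in the day 6 synapse libraries and at 455, 502 and 433 CPM in homogenate C and 433, 509 and 406 CPM in homogenate L. These sets did not overlap before TMM scaling, nor did those of the uncalled Camk2d, and with library totals the median of all genes was -0.98. The log2 difference of Camk4 was -0.90 (SE 0.12, edgeR adjusted p = 0.000107). Both calmodulin genes were also lower. Calm2 was at 317 and 329 CPM against 863 to 1094 CPM (log2 difference -0.77, SE 0.09, adjusted p = 3.82e-05), and Calm3 at 353 and 415 CPM against 842 to 955 CPM (-0.48, SE 0.09, adjusted p = 0.000896). For Calm3, 39.4% of the genes tested had a value as low or lower. Of the members, 1 was called higher and 5 lower. Over all 14137 genes tested, 67.3% were called, 28.7% higher and 38.5% lower, so a call is common in this comparison. Of all calls, 42.7% were higher, and 21.9% with library totals. A fit with fraction and arm as additive terms, which also takes spread from the synapse libraries, called 7527 genes in place of 9508 and kept each member's side of the threshold and direction. The fit assumes that the lone synapse library of each arm varies like the homogenates, and the fraction cannot be told apart from the table in which it was deposited. Without homogenate L replicate 1, the calls of all 7 members were as before.

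Against the synapse libraries of days 1 and 20, the same homogenates gave the higher Camk2a and the lower Camk4 and Calm2 again, while Calm3 and Camk2g did not pass the test. These comparisons share the homogenate libraries, and here fraction, day and table cannot be told apart. Camk2a was at 4583 (C) and 3558 (L) CPM on day 1 and 3718 (C) and 4015 (L) CPM on day 20, a log2 difference from homogenate of 0.45 (SE 0.10, edgeR adjusted p = 0.00125). Camk4 was at 201 and 213 CPM on day 1 and 211 and 233 CPM on day 20, and its log2 difference was -0.90 (SE 0.08, adjusted p = 4.87e-08). Every one of its synapse levels was below the lowest homogenate level of 406 CPM. Camk2b, Camk2g and Calm2 were separated in the same way, and how many of all genes were was not counted. Of the 13607 genes tested, 3.48% had a value as low as Camk4 or lower, and 25.7% one as low as Calm2 or lower. On day 6, these shares were 23.3% and 27.4% of 14137 genes, and 72.9% had a value as low as Camk2a or lower, against 76.0% here.

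Calm2 was at 604 and 647 CPM on day 1 and 585 and 656 CPM on day 20, which differed from homogenate by -0.40 (log2, SE 0.07, edgeR adjusted p = 7.62e-05). Calm3, in contrast, was at 846 and 838 CPM on day 1 and 800 and 795 CPM on day 20, close to its 842 to 955 CPM in homogenate, with a log2 difference of 0.05 (95% interval -0.08 to 0.17, adjusted p = 0.502). With library totals the Calm3 value turned to -0.14 (adjusted p = 0.0222), and the median of all genes moved from -0.04 to -0.23.

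Camk2b was at 778 and 692 CPM on day 1 and 682 and 729 CPM on day 20, and was lower than in homogenate, with a difference of -0.20 (log2, SE 0.06, edgeR adjusted p = 0.0123). That call was lost without the L library of day 1 (adjusted p = 0.0724) and without the C library of day 20 (adjusted p = 0.0617). Camk2d was at 52.1 to 59.7 CPM (log2 difference -0.42, SE 0.16, adjusted p = 0.0398), and its call was lost without any 1 of the 4 synapse libraries and without any of 4 of the homogenates (adjusted p = 0.0553 to 0.1 over these). Camk2g was at 122 to 137 CPM, with a log2 difference of -0.01 (95% interval -0.14 to 0.11, adjusted p = 0.858), and of -0.20 with library totals (adjusted p = 0.00587). Of the members 1 was called higher and 4 lower, beside 28.8% of all genes called higher, 30.7% lower and 59.5% in either direction. Of all calls, 48.4% were higher, and 32.7% with library totals.

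**Figure D2:**
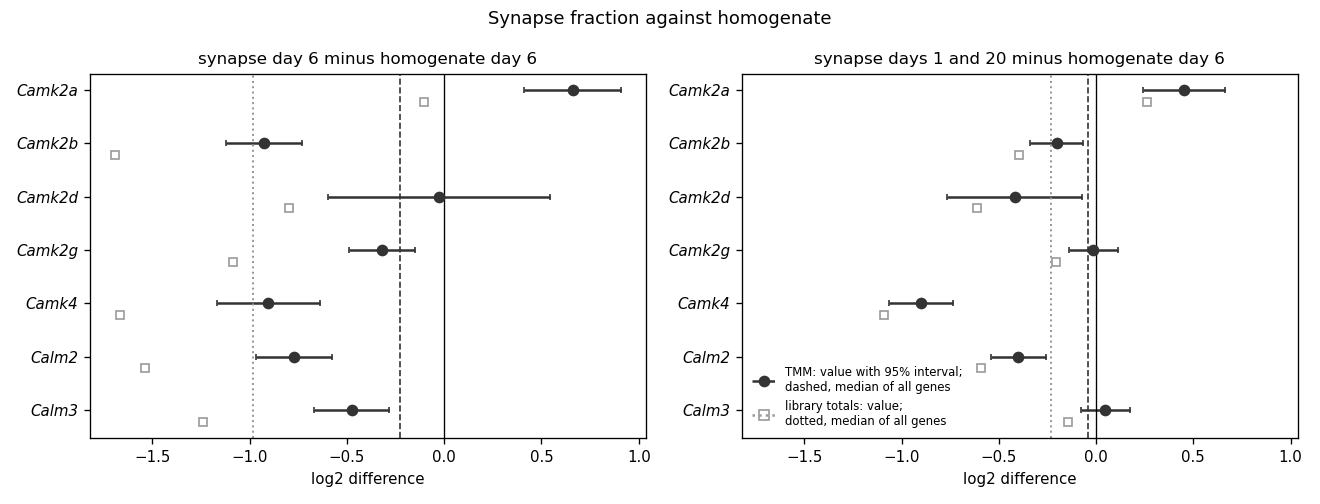
Log2 difference of each member (horizontal axes) between the synapse fraction and the homogenate, for the day 6 synapse libraries at left and those of days 1 and 20 at right. Filled points are TMM-scaled values with 95% intervals, open squares are values scaled by library totals, and the dashed and dotted lines are the medians of all genes under each scaling; Camk2a is at 0.66 and 0.45 under TMM, but at -0.10 with library totals at left, and Camk4 at -0.90 in both.

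Ratios between members of the same library do not depend on the scaling between libraries. Camk2a exceeded Camk2b 3.13 to 3.84 times in homogenate, 5.14 to 5.89 times in the synapse libraries of days 1 and 20, and 10.1 and 10.98 times in those of day 6. The 3 sets did not overlap. Per transcript length, Camk2a made up 66.2% to 71.8% of the summed CaMKII transcripts in homogenate, 76.5% to 79.6% in the synapse fraction on days 1 and 20 and 85.8% and 86.2% on day 6. Camk2b took 23.1% to 26.1%, 16.7% to 18.4% and 9.70% and 10.5% in the same order, and Camk2g 3.68% to 5.06%, 2.85% to 3.95% and 2.31% and 2.93%. Camk2d never exceeded 2.58% of the sum. These ratios are descriptions with no test.

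The ratio of Camk4 to Camk2a was 0.117 to 0.160 in homogenate and 0.0438 to 0.0599 in the synapse fraction, with no overlap. Calm2 and Camk2a shifted against each other too. The ratio of Camk2a to Calm2, which was added after the values were seen, was 2.48 to 4.06 in homogenate, 5.50 to 7.59 in the synapse libraries of days 1 and 20, and 9.05 and 10.1 on day 6. Between the calmodulin genes, the ratio of Calm2 to Calm3 was 0.914 to 1.30 in homogenate and 0.714 to 0.896 in the synapse fraction. The ratios of these transcripts, which encode one and the same calmodulin, thus did not overlap between the fractions. The gap between the sets was narrow and was not tested, and Calm2 counts are the least certain of the members.

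**Figure D3:**
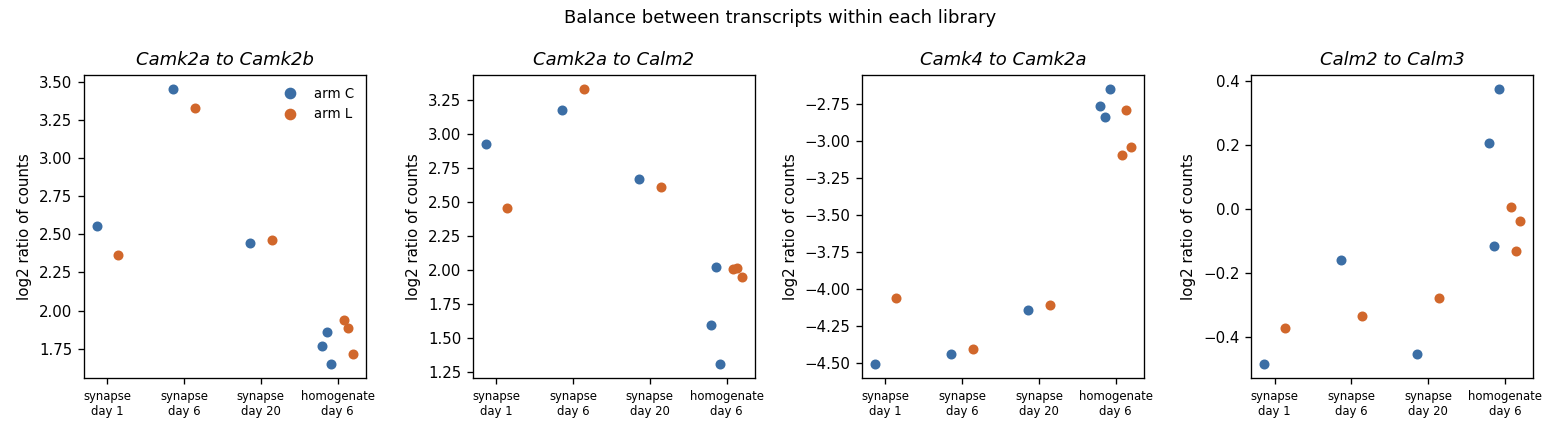
Log2 ratio of counts between pairs of members within each library (vertical axes, not starting at 0), by fraction and day, with arm C in blue and arm L in orange. The Camk2a to Camk2b ratio is lowest in homogenate (1.65 to 1.94), higher in the synapse fraction on days 1 and 20 (2.36 to 2.56) and highest on day 6 (3.33 and 3.46).

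Within the synapse fraction, day 6 differed from days 1 and 20, whereas days 1 and 20 were not told apart. On day 6, Camk2b was lower by 0.78 (SE 0.10, edgeR adjusted p = 0.0017), Calm3 by 0.59 (SE 0.07, adjusted p = 0.00113) and Calm2 by 0.43 (SE 0.08, adjusted p = 0.00701) on the log2 scale. In CPM before TMM scaling, both day 6 libraries lay below all 4 of the other days for each of these 3 genes. The same held for Camk2a, Camk2g and Camk4, but not for Camk2d, so this separation is not particular to the genes called. How many of all genes were separated in this way was not counted. Camk2g was lower as well (log2 difference -0.37, SE 0.11, adjusted p = 0.0472), but without the L library of day 1 the adjusted p was 0.184, without either library of day 20 or the L library of day 6 it also passed 0.05, with RLE scaling it was 0.0512 and with DESeq2 0.0634. Camk2a, Camk2d and Camk4 did not pass the test, with log2 differences of 0.15 (adjusted p = 0.367), 0.33 (adjusted p = 0.102) and -0.06 (adjusted p = 0.571).

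Of the members 0 were called higher and 4 lower on day 6, beside 18.2% and 15.2% of the 13363 genes tested and 33.5% in either direction. Scaling by library totals moved the median of all genes from -0.08 to -0.59 and the share of higher calls from 54.5% to 22.2%. On that scale Camk2a turned to -0.36 (adjusted p = 0.0481), Camk2d to -0.18 (adjusted p = 0.363), and Camk4 was at -0.58 (adjusted p = 0.00176). Without the C library of day 1, where Camk2a was highest, the Camk2a difference under TMM was 0.29 (adjusted p = 0.0228), and without the C library of day 6 the Camk2d difference was 0.49 (adjusted p = 0.00272). Day and table cannot be told apart here. The oligodendrocyte and endothelial markers also differed between these days, with endothelial and mural sums of 319 to 469 CPM on days 1 and 20 and 121 and 91.8 CPM on day 6, where Tek was at 0 in the C library.

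Between days 20 and 1, the largest log2 difference of a member was 0.09 in size (Camk4 0.09, Calm3 -0.09), and Camk2a was at -0.08 (95% interval -0.40 to 0.25). Of all genes, 0% were called by edgeR, 14 genes had an unadjusted p under 0.05, and DESeq2 and limma-voom called 0. Without 1 or both day 6 libraries, 395 to 422 genes had an unadjusted p under 0.05.

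The L and C arms were compared in homogenate on day 6, with 3 libraries each, to ask whether these transcripts differ in whole hippocampus during learning. No member passed the test. The quasi-likelihood test of edgeR called 0 of 13647 genes (0%), with 1217 at an unadjusted p under 0.05. DESeq2 called 13 genes and limma-voom 0, none of them a member. Camk2a averaged 3124 ± 436 CPM in C and 3514 ± 183 CPM in L (SD, n = 3), a log2 difference of 0.18 (95% interval -0.08 to 0.43, edgeR adjusted p = 0.664). The highest C library, at 3580 CPM, lay above the lowest of L, at 3334 CPM, so the arms overlapped.

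The Camk2a levels moved with the neuronal markers between homogenates. In arm C the summed pyramidal and granule cell markers were 3197, 3674 and 2901 CPM in replicates 1, 2 and 3, and in arm L 3829, 3651 and 3504 CPM. Both measures were lowest in C replicate 3 and highest in L replicate 1. The part of this in the Camk2a difference was not tested.

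Camk2b averaged 918 ± 61.1 CPM in C and 977 ± 34.0 CPM in L (SD, n = 3; log2 difference 0.10, 95% interval -0.09 to 0.28). Camk2d was the most variable member: its levels were 97.7, 59.6 and 117 CPM in C and 82.6, 66.0 and 98.3 CPM in L, with a coefficient of variation of 25.0% over the 6 homogenates. Replicate 2 was lowest in both arms. The log2 difference of -0.14 had a 95% interval of -0.65 to 0.36. The 8 inhibitory neuron markers, which in homogenate ranged from 596 to 824 CPM, were likewise lowest in C replicate 2 and highest in C replicate 3. In arm L they summed to 640, 658 and 791 CPM in replicates 1, 2 and 3, so there replicate 2 was not the lowest. The part of these markers in the Camk2d spread was not tested.

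Camk2g was the least variable, with a coefficient of variation of 4.32%. Its C levels were 148, 156 and 154 CPM and its L levels 141, 143 and 143 CPM, so that every L library lay below every C library. The log2 difference was -0.10 (95% interval -0.26 to 0.07, edgeR adjusted p = 0.712). Of all genes tested, 8.08% had every L library below every C library and 15.8% had arms that did not overlap in either direction. Camk2g was 1 of 7 members with such a separation.

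Camk4 averaged 464 ± 35.1 CPM in C and 449 ± 53.4 CPM in L (SD, n = 3; log2 difference -0.04, 95% interval -0.28 to 0.21). Calm2 was at 1019, 882 and 1094 CPM in C and 921, 867 and 863 CPM in L, with a log2 difference of -0.17 (95% interval -0.35 to 0.02, edgeR adjusted p = 0.588). Only the C library of replicate 2 lay within the L range. Calm3 averaged 894 ± 57.2 CPM in C and 917 ± 31.6 CPM in L (SD, n = 3; log2 difference 0.04, 95% interval -0.15 to 0.23). Over the members, 3 values were above 0 and 4 below, with a median of -0.04 beside 0.00 for all genes. Without L replicate 1, the library with liver transcripts, adjusted p-values of the members were between 0.604 and 0.991.

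In the synapse fraction, each day has 1 library per arm, so these ratios have no test between arms. Their intervals cover counting error only, and 2-fold was used as a mark of size among genes averaging 10 CPM or more. On day 1 the L library held less Camk2a than the C library: 41291 against 61084 counts, a log2 ratio of -0.41 after TMM scaling (exact Clopper-Pearson 95% interval carried to the ratio, -0.43 to -0.40). Of the 9316 genes measured, 1.85% had a ratio as low or lower. Camk2b had a log2 ratio of -0.22 (-0.26 to -0.18), Calm3 of -0.06 (-0.10 to -0.02) and Camk2g of 0.11 (0.01 to 0.21). Camk2d (-0.01), Camk4 (0.04) and Calm2 (0.05) were near 0. On this day 14 genes (0.15%) were past 2-fold and no member was. Beside this, the pyramidal and granule cell markers summed to 3320 CPM in C and 3226 CPM in L, the endothelial and mural markers to 319 and 469 CPM and the choroid plexus markers to 4567 and 5335 CPM, and their part in the Camk2a ratio was not tested.

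On day 6 the signs of both CaMKII genes that were low in L on day 1 were the other way. Camk2a had a log2 ratio of 0.13 (0.11 to 0.15), Camk2b of 0.25 (0.19 to 0.32), Camk2d of 0.29 (0.13 to 0.45), Camk4 of 0.16 (0.07 to 0.25) and Calm3 of 0.15 (0.09 to 0.20). Camk2g had a ratio of -0.21 (-0.35 to -0.08), and Calm2 of -0.03 (-0.09 to 0.04). Ratios were spread more widely over all genes on this day, where their scaled median absolute deviation was 0.404, while it was 0.165 for day 1 and 0.159 for day 20. Of the 8079 genes measured, 515 (6.37%) were past 2-fold, 294 higher and 221 lower, and 0 members were; with library totals the split was 382 and 167.

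On day 20 Camk2a had a log2 ratio of 0.12 (0.10 to 0.14), Camk2b of 0.10 (0.06 to 0.15), Camk4 of 0.15 (0.07 to 0.23) and Calm2 of 0.17 (0.13 to 0.22). Camk2d was at -0.19 (-0.35 to -0.03), Camk2g at -0.10 (-0.21 to 0.01) and Calm3 at -0.00 (-0.04 to 0.04). Of 9306 genes, 5 (0.0537%) were past 2-fold, and again no member was. Under TMM scaling, Camk4 was the member with a ratio above 0 on all 3 days, at 0.04, 0.16 and 0.15, though its counting interval on day 1 (-0.04 to 0.12) included 0. With library totals Calm2 was above 0 on all 3 days too, at 0.10, 0.06 and 0.17.

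Tested over the 3 days with day as a block, no member passed the test between arms. The log2 differences were -0.07 for Camk2a (95% interval -0.34 to 0.20), 0.03 for Camk2b, 0.02 for Camk2d, -0.08 for Camk2g, 0.10 for Camk4 (-0.07 to 0.28), 0.05 for Calm2 and 0.01 for Calm3. Leaving out 1 library gave -0.16 to 0.10 for Camk2a, -0.05 to 0.16 for Camk2b, -0.09 to 0.12 for Camk2d, -0.18 to 0.01 for Camk2g, -0.01 to 0.12 for Calm2 and -0.03 to 0.05 for Calm3, so the direction of these 6 was not stable. Here edgeR called 0 of 13363 genes (0%), with 227 at an unadjusted p under 0.05, while DESeq2 called 0 and limma-voom 1. Leaving out 1 library or both of day 6 raised the 227 to between 573 and 816. Days are not replicates of one condition, so a response limited to a single day is not tested by this fit. The difference between the arm effects of the 2 fractions on day 6, a test added after the data were seen, was not called for any member (edgeR adjusted p = 0.511 to 0.832), beside 18.2% of all genes. That fit has 1 synapse library per arm, so its spread comes only from the homogenates and the lone synapse libraries are assumed to vary like them.

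**Figure D4:**
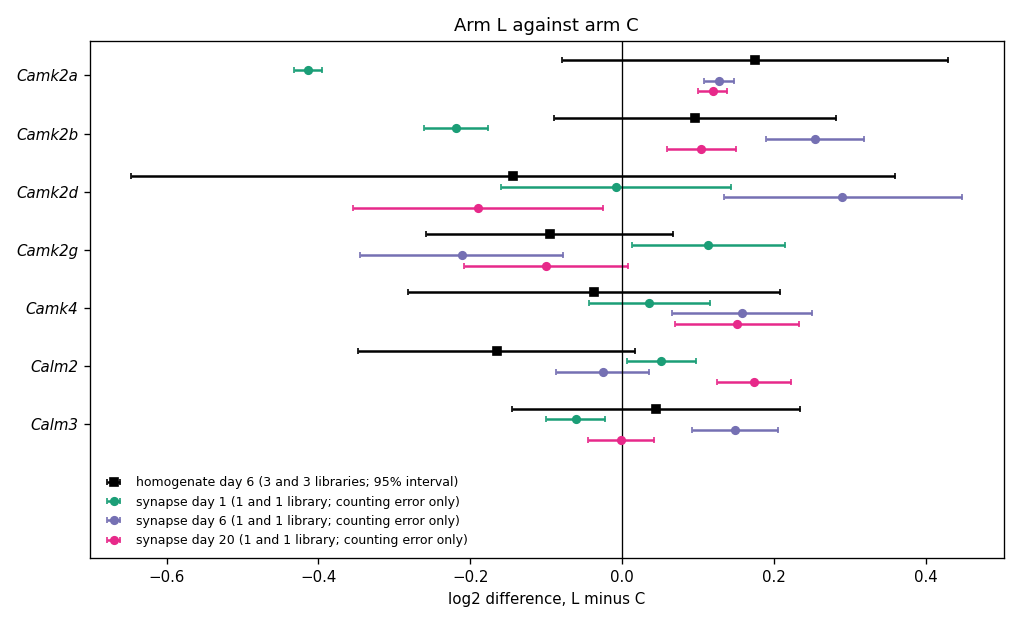
Log2 difference of arm L from arm C for each member (horizontal axis), in homogenate on day 6 (black squares, 3 libraries per arm, 95% interval of the edgeR fit) and in the synapse fraction on each day (coloured points, 1 library per arm, intervals for counting error only). All homogenate intervals include 0; Camk2a in the synapse fraction is at -0.41 on day 1 and at 0.13 and 0.12 on days 6 and 20.

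Around these members, 7 lists of other pathway genes, 86 genes in all, were read in the same fits. In the homogenate arms, 0 of the 86 were called. The smallest unadjusted p-values included Pde1b, a calmodulin-activated phosphodiesterase, at 89.4 to 99.8 CPM in C and 76.8 to 79.8 CPM in L (log2 difference -0.27, edgeR adjusted p = 0.467). Others were Hdac4, a histone deacetylase that CaM kinases exclude from the nucleus, at 0.34 (adjusted p = 0.467), and Mylk, the calmodulin-dependent myosin light chain kinase, at -0.35 (adjusted p = 0.485). The arms did not overlap for Pde1b, Hdac4 or Mylk, a separation found in 15.8% of all genes. These genes were picked by their small p-values in the same libraries, which favours such a separation.

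Between the fractions on day 6, the lists differed in their counts. Of 16 calmodulin-regulated enzymes and pumps, 10 were higher and 6 lower in the synapse fraction, with a median of 0.65 beside -0.22 for all genes. The plasma membrane calcium pumps Atp2b3 (log2 difference 2.77, SE 0.08, edgeR adjusted p = 9.43e-09) and Atp2b2 (2.06, SE 0.09, adjusted p = 5.67e-08) had the smallest p-values of this list. Atp2b3 was at 913 and 984 CPM in the day 6 synapse libraries and at 210 to 276 CPM in homogenate. Of 11 CaMKII partners and substrates at the synapse, 5 were higher and 5 lower, with a median of 0.07. Grin1, the obligatory NMDA receptor subunit (2.33, SE 0.08), and Cacna1c, a pore subunit of L-type calcium channels (1.84, SE 0.09), were higher. Grin1 was at 1110 and 1204 CPM in those libraries and at 367 to 412 CPM in homogenate.

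In each of the other lists, more genes were called lower than higher. Among 17 other CaM kinases and their regulators, 1 was higher and 12 were lower (median -0.60). Ppm1e, a phosphatase that removes the activating phosphate from CaM kinases, fell by 1.46 and Camkk1, the kinase that activates CaM kinases I and IV, fell by 1.32 on the log2 scale. Of 11 neuronal calcium sensors and buffers, 1 was higher and 9 were lower (median -1.09), with Ncald at -1.17 and Vsnl1 at -1.15. Of 10 genes of calcineurin and its regulators, 1 was higher and 6 were lower (median -0.62), including Ppp3r1, the regulatory subunit, at -1.23, and Ppp3cb, a catalytic subunit, at -0.70. Nuclear targets of CaM kinase signalling were lower in 7 of 12 and higher in 0, with Mef2a at -0.78 and Mef2d at -0.74. Calmodulin-binding IQ proteins and calmodulin buffers were lower in 4 of 9 and higher in 0, with Pcp4l1 and Marcksl1 both at -1.23. These counts stand beside 28.7% of all genes higher and 38.5% lower.

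Against the synapse libraries of days 1 and 20, the counts higher and lower were 8 and 3 of 11 for CaMKII partners, 6 and 3 of 16 for enzymes and pumps, and 3 and 5 of 16 tested for the other CaM kinases. They were 2 and 4 of 11 for calcium sensors, 3 and 5 of 10 for calcineurin, 4 and 5 of 12 for nuclear targets and 3 and 2 of 9 for IQ proteins. Over all 13607 genes tested, 28.8% were called higher and 30.7% lower. In the synapse pairs, with 1 library per arm, the CaMKII partners had a median L to C log2 ratio of -0.18 on day 1, beside -0.01 for all genes. Their median was -0.00 on day 6 and 0.00 on day 20. The enzymes and pumps had a similar median of -0.16 on day 1, and the remaining lists lay between -0.06 and 0.03. None of the 11 CaMKII partners was past 2-fold on day 1.

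Among 9391 genes averaging 10 CPM or more over the 12 libraries, those whose log2 levels tracked Camk2a most closely included Zfp106 (Pearson r = 0.95) and Dio2 (0.94). Those closest to Camk2b were Sfi1, Nefl, Rtfdc1 and Spred2 (r = 0.98 to 0.99), and those closest to Calm2 were Oxr1, Prkar1a, Mtx2 and Fbxo28 (r = 0.98). Between the members, Camk2a had r = -0.88 with Calm2 and -0.54 with Camk2b, and Camk2b had 0.90 with Calm3. The 12 libraries differ in fraction, day and table, which these values cannot be told apart from, so they are a description with no test.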

How the data were processed

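Per the labels' protocols, ribosomal RNA was removed from total RNA before strand-specific (dUTP), randomly primed library preparation. The submitters' processing notes name HISAT2 2.0.4, HTSeq 0.9.1, cutadapt 1.9.3 and edgeR, with the build mm10; the sources used here give neither the annotation release nor the strand setting. The authors deposited raw read counts per gene in 4 tables, 1 for the 6 homogenates and 1 for each day's synapse pair.

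From these, counts were tested in R 4.3.3 by edgeR's quasi-likelihood method (version 4.0.16) (filterByExpr, TMM scaling, robust fit) over all genes of the tables compared, calling genes at a Benjamini-Hochberg adjusted p under 0.05. Synapse pairs were compared by TMM-scaled log2 ratios with a prior count of 2. Alternatives were DESeq2 1.42.0, limma-voom (limma 3.58.1), DESeq2's size factors (RLE), library totals, no filter on low counts, a replicate block, fraction and arm as additive terms, and leaving out each library. The fits were tested on simulated data with 200 changed genes. A count of 0 allows up to 3 counts, or 0.188 to 0.330 CPM; like the intervals, this covers only counting error, as the reads carry no molecular identifiers. No pair of homogenate libraries within an arm agreed within sampling noise. Positions, lengths and sequences came from GENCODE M21, in which all 7 members were found by gene ID. No protein letters are shown, and no bases of the members on chromosome 18 are shown. Pathway genes were named by a rule, at most 2 per list and fit with the smallest unadjusted p. Some genes that a rule picked are not reported here. The members, lists, rules and tests were chosen with earlier results of these data known.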

Additional observations from a re-analysis of the deposited data

Results flagged for a closer look

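Within the synapse fraction, some members had L to C ratios on opposite sides of 0 on different days, with counting intervals that excluded 0 on each. Each day has 1 library per arm, so the difference between days was not tested. Camk2a had a log2 ratio of -0.41 on day 1, 0.13 on day 6 and 0.12 on day 20, and Camk2b of -0.22, 0.25 and 0.10. Camk2d was at 0.29 on day 6 and -0.19 on day 20. Camk2g was at 0.11 on day 1 and -0.21 on day 6, and Calm3 at -0.0614 on day 1 and 0.15 on day 6. With library totals, the Calm3 ratio on day 1 was -0.0130 and the Camk2g ratio on day 6 was -0.13, so how far these lie from 0 depends on the scaling.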

How the results depend on the processing

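No member passed the test between arms under any alternative run, in homogenate or in the synapse fraction with day as a block. In homogenate, the count of 0 genes called became 13 with DESeq2, 1 with a replicate block and 0 to 3 without 1 library each, with 3 when C replicate 2 was left out. Libraries of the same replicate number share a code in the column names, and the labels do not say what it means. The main fit therefore has no block. In their deviations from the arm means, same-numbered libraries correlated by 0.01, 0.25 and 0.18, and differently numbered ones by -0.26 to 0.11. Not every library correlated best with its own number, so these values do not settle whether the numbers mark pairs. Between arms over days, limma-voom called 1 gene, leaving out both day 6 libraries, which was chosen after seeing the data, gave 1, and leaving out 1 library gave 1 to 3. Day 20 against day 1 gave 0 to 4 genes without 1 library each. Day 6 against days 1 and 20 gave 3721 to 8613, beside 4470 with all libraries; the counts without the C and the L library of day 6 were 7764 and 8613. With floors of 5 and 20 CPM, the genes past 2-fold were 33 and 5 on day 1, 1143 and 171 on day 6, and 19 and 2 on day 20. Scaling by library totals reversed Camk2a between fractions on day 6 (-0.10), Calm3 between the synapse libraries of days 1 and 20 and homogenate (-0.14), and Camk2a (-0.36) and the uncalled Camk2d (-0.18) between day 6 and the other synapse days. It takes no account of the larger share of counts that few genes hold in the synapse libraries. Counting intervals of the synapse ratios were widest for Camk2d, the member with the fewest counts (-0.35 to -0.03 on day 20).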
